A study of Caenorhabditis elegans with 2 samples.

Results

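The exon and 3' end sites are 1779 regions listed in a chromatin immunoprecipitation sequencing (ChIP-seq) experiment on F22D6.2-GFP in whole worms. They were chosen by 2 properties, the signal value in the list made from both replicates together and the place of the summit, the deposited position of highest enrichment within a region. The list had to give a signal value of at least 25 on chromosomes I to V. The summit had to lie in a coding or untranslated part of an exon of a protein-coding gene, more than 500 bp from every protein-coding gene's 5' end and more than 200 bp from every tRNA, snoRNA, snRNA or rRNA gene. The pooled list, which per the labels holds peaks together with background regions, had 26002 regions, of which 21214 lay on chromosomes I to V and 8048 of those reached 25. The sites made up 22.1% of these 8048 regions. Among them, 1360 had a summit in coding sequence, 354 in a 3' untranslated region (3' UTR) and 65 in a 5' untranslated region (5' UTR).

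The study comprised 1 group of 2 biological replicates of Caenorhabditis elegans strain OP399. These hermaphrodites carry the allele unc-119(tm4063) on chromosome III and the integrated transgene wgIs399, which expresses F22D6.2 with a GFP-FLAG tag at its C-terminus. Young adults were taken 67 hours after starved L1 larvae from bleached mothers had been synchronized, their chromatin was sonicated, and an antibody against GFP pulled down the tagged protein. Both replicates carried the transgene and were set against the same control, so tagged and untagged worms cannot be compared, and signals from different tissues of the whole animal are mixed. The gene models name F22D6.2 mstr-1, and all coordinates are on build ce11.

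Transcription factors are best known for binding promoters and enhancers, but ChIP-seq lists also hold summits within the transcribed parts of genes. The genome of C. elegans is compact: neighbouring genes often point towards each other and end within a short distance, or overlap at their 3' ends. Many worm genes also have several transcription starts, so that the 5' UTR of a short transcript can lie deep inside the gene. A cleavage and polyadenylation signal, most often AATAAA, lies near the end of most 3' UTRs.

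Sequences at or beside 11 summits show the 3 kinds of place. Each is 30 bases on ce11, written 5' to 3' on the strand of its gene, and comes from the RefSeq copy of the assembly. The first 5 are the coding sites with the highest pooled signal, with the codon under the summit in capitals. The genes are dos-3, which encodes a secreted protein related to Notch ligands, stdh-1, a steroid dehydrogenase family gene, best-18, a member of the bestrophin chloride channel family, col-140, a cuticle collagen gene, and F25B5.5.
dos-3 (chrIII:835936-835965, minus strand): atccgtgaacgtgGATtggctccagggcca
stdh-1 (chrV:13907879-13907908, plus strand): aattgcttccagatTTTgttatcgacagat
best-18 (chrIII:10214583-10214612, plus strand): ttcttcgaccatctTCActtctcaacctaa
col-140 (chrV:5836242-5836271, minus strand): tccggagacaacGGAcgcaagggaccacca
F25B5.5 (chrIII:5943982-5944011, minus strand): ctctgtttggaaCCTggtcaatatgcaaag

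In col-140 the codon under the summit is GGA, which encodes glycine, and the stretch belongs to a collagen gene whose protein repeats glycine at a fixed spacing. The next 3 lie in 3' UTRs and show AATAAA in capitals on the strand of the gene, as 56 of the 354 3' UTR sites had it within the central 100 bp. On either strand 123 of the 354 had it (34.7%), against 41.1% of 100 bp windows of the 3' UTR sequence that the rule allows.
C17F4.7 (chrII:3245121-3245150, minus strand): gatatgctcgatAATAAAtacatatgcgca
dct-16 (chrV:20497923-20497952, minus strand): ttatgagcttgtAATAAAataatttttgta
dct-15 (chrIV:9806408-9806437, minus strand): tttggaatatttAATAAAatattattttgt

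The summits lay 10 bp, 6 bp and 17 bp from these 3 signals, in the order printed. The last 3 lie in 5' UTRs and show GAGAGA, or TCTCTC where it is on the other strand, in capitals. It was found within the central 100 bp of 15 of the 65 5' UTR sites (23.1%), against 8.53% of such windows of 5' UTR sequence.
srh-2 (chrV:731499-731528, plus strand): gccgggcagcacGAGAGAaagagcgtgata
M01H9.3 (chrIV:4470020-4470049, minus strand): agtagagagcttTCTCTCtcccacccccta
F22D3.4 (chrII:6926639-6926668, minus strand): aacaaaagaaaaGAGAGAcgagagacgcgg

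The pooled signal values, which chose the sites, reached 293.6 with a median of 31.3, and their lower and upper quartiles were 27.6 and 38.2. This value came from the authors' peak caller, on a scale that is not given in the sources used here. Of the 1779 sites, 754 fell between 25 and 30, 645 between 30 and 40, 313 between 40 and 60, and 67 reached 60. The 3 sites just inside the limit lay in pqn-41, pqn-59 and pfkb-1.2, at 25.0059, 25.0112 and 25.0155. The 3 regions just outside it lay in K02D10.1, aass-1 and W09D10.5, at 24.9999, 24.9982 and 24.9909. The median was 30.8 for coding sites, 33.2 for 3' UTR sites and 38.0 for 5' UTR sites, against 35.9 for regions near protein-coding 5' ends (500 bp or less), 32.0 in introns and 34.4 in intergenic sequence. A deposited −log10 q-value above 1, that is a q-value under 0.1, was given for 581 sites (32.7%).

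The thresholded set is the list of peaks that passed the authors' irreproducible discovery rate step, which weighs how alike peaks rank between lists. It held 27 of the 1779 sites: 14 coding, 6 in 3' UTRs and 7 in 5' UTRs. These are 1.52% of the sites, beside 7.32% of all 8048 regions on the same chromosomes at 25 or more. Since the set is the top of the list whose values chose the sites, nothing is read from that difference. The lowest pooled value in the whole set was 80.3, and the zyg-11 site, at 80.2, was outside it. Both replicates' own lists held a summit within 100 bp for 24 of the 27. Ranks in these lists could differ widely within the set: the stdh-1 site ranked 6526 in replicate 1 and 106 in replicate 2.

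Each replicate also has its own list, of 25000 regions for replicate 1 and 23268 for replicate 2. A site was counted as high in a replicate when a summit among that replicate's 8048 highest regions on chromosomes I to V lay within 100 bp. This held in both replicates for 296 sites (16.6%), beside 27.8% of all 8048 pooled regions. By place, it held for 200 of 1360 coding sites (14.7%), 75 of 354 3' UTR sites (21.2%) and 21 of 65 5' UTR sites (32.3%). The classes came in the same order by median pooled signal. Among sites with a pooled signal between 30 and 40, the share was 12.1% for coding, 14.5% for 3' UTR and 5.26% (1 of 19) for 5' UTR sites, against 14.7% for regions near 5' ends, 11.6% in introns and 15.3% in intergenic sequence. At 40 to 60 it was 46.0%, 49.4% and 47.1%, against 60.1%, 53.6% and 54.1%. At 60 to 80, with 23, 10 and 5 sites, it was 82.6%, 90% and 100%, against 86.0%, 73.2% and 82.6%. At 80 or more, with 14, 8 and 7 sites, it was 85.7%, 75% and 100%, against 96.5%, 93.5% and 89.9%. Between 25 and 30 it was 1.63%, 0.806% and 0%, against 2.10%, 0.894% and 0.730%. All 3 exon classes stood below these other places at 40 to 60, and coding and 3' UTR sites at 80 or more. The 5' UTR sites also did so at 25 to 30 (17 sites) and at 30 to 40 (19 sites). No class did so in every band.

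A further way to see the spread is to take the sites with a summit within 100 bp anywhere in each replicate's list. There were 744 of them, while 521 were listed in replicate 1 but not in replicate 2, 434 in replicate 2 but not in replicate 1, and 80 in neither. Over the 744 sites the median signal was 17.3 in replicate 1 and 17.2 in replicate 2. Across these sites the replicates' values had a Spearman rho of 0.18, against 0.49 over the 4100 regions of all kinds at 25 or more that both lists held. By place it was 0.12 for 551 coding, 0.23 for 166 3' UTR and 0.45 for 27 5' UTR sites, so it was lower in coding and 3' UTR sites. Sites are not independent replicates, and choosing them on the pooled value narrows their range, so the rho is given as a description. The plot of the replicates' values shows most sites in a cloud between 10 and 40 in both, while each of the 24 thresholded sites plotted is above 40 in at least 1 replicate.

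**Figure D1:**
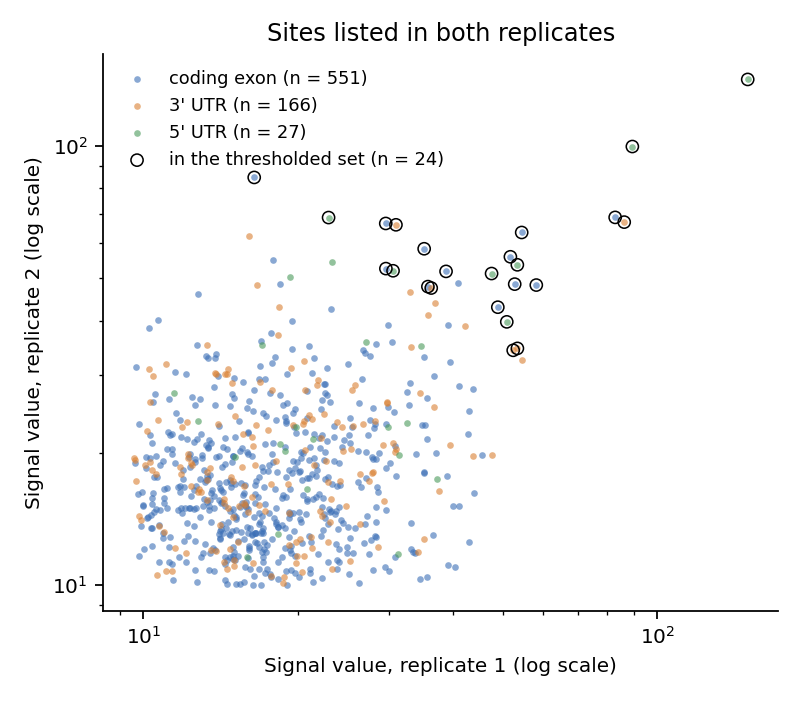
Signal value in replicate 1 (x axis) and replicate 2 (y axis), both on log scales, for the 744 sites with a summit within 100 bp in each replicate's list. Each point is a site, coloured by place, and open circles mark the 24 of the 27 thresholded sites that both lists held; the remaining 3 lack a summit in 1 list and are not plotted.

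Among the 14 thresholded coding sites, 10 lay in the last exon of their gene, and 11 had a next gene that was convergent, meaning that it ends towards the site's gene from the other strand. In 9 of these 11, the next gene ended less than 500 bp away or overlapped. The dos-3 site had a signal value of 82.8 in replicate 1 and 68.7 in replicate 2 and lay in exon 11 of 11, 200 bp from the gene's 3' end. The convergent gene zip-2, which encodes a bZIP transcription factor of the infection response, overlaps the end of dos-3 by 63 bp. The summit in best-18 had 54.5 in replicate 1 and 63.5 in replicate 2, again in the last exon, where the citrate synthase gene cts-1 overlaps it by 59 bp. Both replicates ranked these sites high.

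F25B5.5 had 51.8 in replicate 1 and 55.9 in replicate 2, in its last exon, and overlaps by 8 bp the polyubiquitin gene ubq-1. The site of arrd-6, an arrestin domain gene, had 35.2 in replicate 1 and 58.3 in replicate 2, and its gene ends 1 bp from pqm-1, which encodes a zinc finger transcription factor of the stress response. The last exon of pgal-1, for a peptide amidating lyase, had 52.8 in replicate 1 and 48.4 in replicate 2. For each of these 5 genes, then, the summit lay within 393 bp of the 3' end and both lists held it.

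The replicates differed by more for other coding sites. The stdh-1 summit had 84.7 in replicate 2, where it ranked 106, but 16.4 in replicate 1, where it ranked 6526. For col-140 the value was 73.6 in replicate 1, and replicate 2 listed no summit within 100 bp. In col-122, another cuticle collagen gene, replicate 2 had 66.5 and replicate 1 had 29.6. A summit in mdt-26, which encodes a subunit of the Mediator complex, had 40.5 in replicate 1 and none in replicate 2. The pooled value alone did not show these gaps.

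Thresholded coding sites outside last exons were 4 in number. The site in exon 3 of 7 of acdh-1, for an acyl-CoA dehydrogenase whose expression follows vitamin B12 and propionate, had 58.2 in replicate 1 and 48.2 in replicate 2. It lay 174 bp from the nearest annotated transcript start. The others were in vit-6, mdt-26 and D2030.3, and of the 4 only the acdh-1 site lay within 500 bp of an annotated transcript start.

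The 6 thresholded 3' UTR sites all lay in the last exon, and 2 had a convergent next gene. The highest, in C05D11.8, had 86.2 in replicate 1 and 67.0 in replicate 2 and lay 517 bp from the gene's 3' end. In ptr-12, a gene of the Patched-related family, replicate 2 had 62.4 and replicate 1 listed no summit. F16A11.1 had 53.4 in replicate 1 and 34.6 in replicate 2, and Y71F9AL.10 had 52.4 and 34.2, both higher in replicate 1. For R12E2.11 and T19A5.3 replicate 2 was the higher, with 66.1 against 31.0 in replicate 1 for R12E2.11 and 47.4 against 36.3 for T19A5.3. The snRNA gene sls-2.4 lies within 500 bp of the R12E2.11 summit, outside the 200 bp that the rule excluded. The T19A5.3 end overlaps by 92 bp the convergent gene unc-23, which encodes a BAG domain chaperone regulator.

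Below the thresholded set, 3' UTR sites reached 80.2 in zyg-11, the substrate receptor of a ubiquitin ligase, whose 3' end overlaps the histone deacetylase gene hda-2 by 5 bp. The pair mef-2, for a MADS box transcription factor, and gei-17, for a SUMO ligase, overlap at their ends by 19 bp, and each had a site. The mef-2 summit had 56.2 in replicate 1 and no summit within 100 bp in replicate 2. The gei-17 summit had 42.3 in replicate 1 and 38.9 in replicate 2. The regions of these sites overlap each other, so they are not separate stretches. The site in daf-16, the FOXO transcription factor of insulin signalling, lay 199 bp from the gene's end and had 62.3 in replicate 2 but 16.0 in replicate 1. Of the 3 sites printed with AATAAA, C17F4.7 had 21.7 in replicate 1 and 28.5 in replicate 2. Those in dct-16 and dct-15 had 40.9 and 34.2 in replicate 2, while the list of replicate 1 held no summit within 100 bp.

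The 5' UTR sites included the highest of all, in C34C12.2, with 150.0 in replicate 1 and 141.6 in replicate 2, ranks 16 and 23 in their lists. It was followed by the summit in srh-2, a member of a chemoreceptor family, with 89.4 in replicate 1 and 99.6 in replicate 2. The srh-2 summit lies 3203 bp inside the outermost annotated end of its gene but 95 bp from the nearest start of an annotated transcript. Summits in drap-1, whose product is a subunit of the NC2 transcription corepressor, tent-5, a terminal nucleotidyltransferase gene, and M01H9.3 lay 66 bp, 72 bp and 13 bp from such a start. The one in C34C12.2 lay 2087 bp from the nearest start, and that in dmd-7, a DM domain factor gene, 569 bp. Both replicates held the M01H9.3 summit, at 47.6 in replicate 1 and 51.2 in replicate 2, and that in F22D3.4, which is below the thresholded set, at 23.3 and 54.3. Of the 7 thresholded 5' UTR sites, 5 lay within 500 bp of an annotated transcript's start.

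To describe where sites lay relative to what the rule allows, every 100th base of chromosomes I to V was put through the same rule, which gave eligible windows. The sites had a density of 94.3 per Mb of eligible exon. By place it was 194 per Mb in 5' UTRs, 166 in 3' UTRs and 83.0 in coding sequence, against 161 within 500 bp of protein-coding 5' ends, 70.1 in introns and 72.5 in intergenic sequence, counted at the same signal value. The density in untranslated parts of exons was thus close to that near 5' ends, and that in coding sequence closer to introns. Windows say where a site could lie and are not a control sample, so no test accompanies these values.

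**Figure D2:**
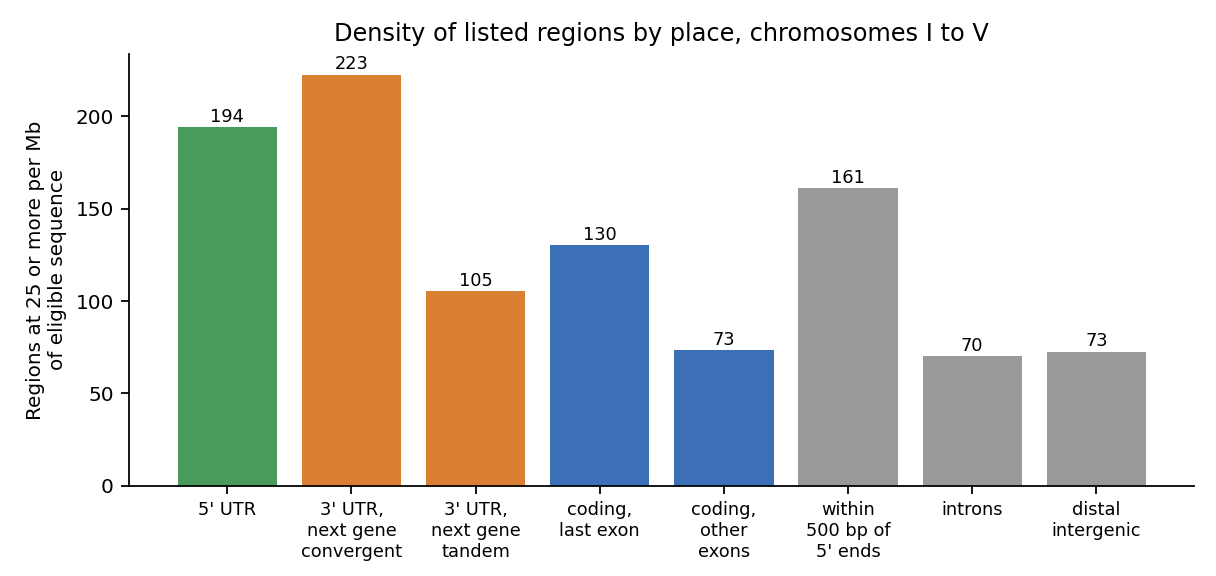
Number of pooled regions with a signal value of at least 25 per Mb of eligible sequence on chromosomes I to V (y axis), by place (x axis). Coloured bars are the exon and 3' end sites and grey bars the other kinds of place; 3' UTRs beside a convergent gene stand at 223 per Mb, against 105 beside a tandem gene.

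Along the gene, coding sites leaned to the 3' side. Last exons held 359 of 1360 coding sites (26.4%), against 16.8% of eligible coding windows. The density was 130 per Mb in last exons, against 73.4 in other exons. In the last of 10 equal parts of the gene lay 17.0% of coding sites, against 10.9% of windows, and in the fifth part 7.72%, against 11.6%. By pooled signal, the last-exon share was 26.8% at 25 to 30, 21.6% at 30 to 40, 29.3% at 40 to 60 and 67.6% (25 of 37) at 60 or more. It did not rise steadily, and the high last value rests on few sites. Among the 200 coding sites high in both replicates the share was 30.5%.

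**Figure D3:**
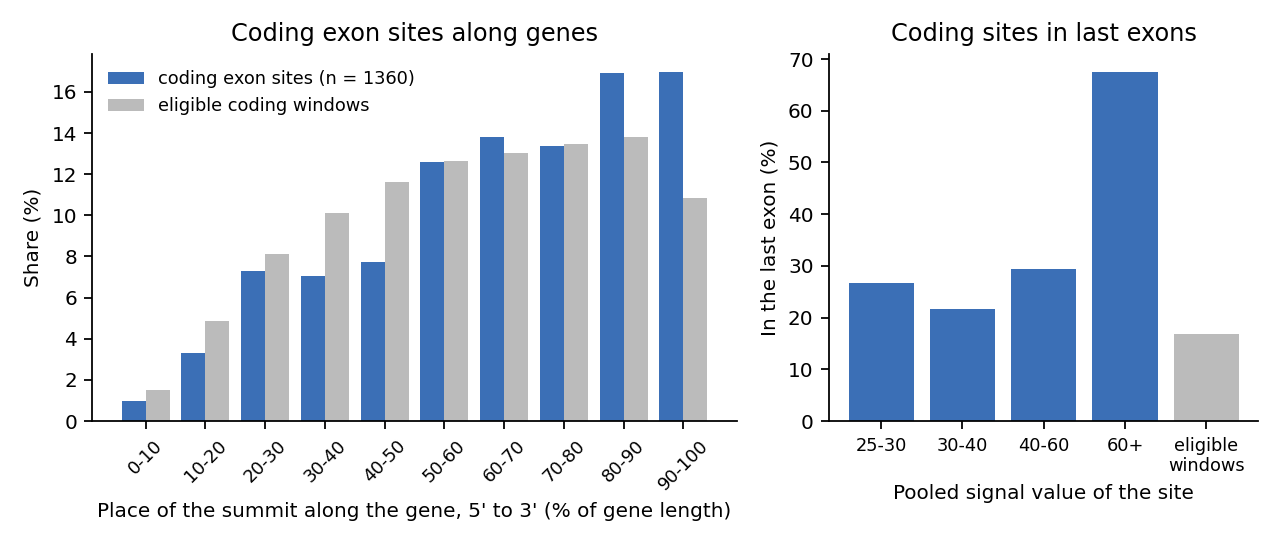
Left, share of the 1360 coding sites (blue) and of eligible coding windows (grey) in each of 10 equal parts of the gene, from 5' to 3'. Right, share of coding sites in the last exon by pooled signal value, with eligible windows in grey; sites at 60 or more stand at 67.6% and windows at 16.8%.

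The orientation of the next gene downstream differed too. A convergent next gene was found for 57.2% of coding sites, against 47.0% of coding windows. For 3' UTR sites it was 69.5% (246 of 354), against 51.8% of 3' UTR windows, and the median gap to the next gene was 177 bp, against 611 bp. The density of 3' UTR sites was 269 per Mb where the convergent genes overlap, 246 where the gap was under 500 bp and 140 where it was larger. Beside tandem genes, which follow on the same strand, it was 105 per Mb, with 100 where the gap was under 500 bp and 106 where it was larger. The rule on 5' ends removes 3' UTR sequence close to the start of a tandem gene. Eligible tandem sequence was 0.19 Mb at gaps under 500 bp and 0.81 Mb at larger gaps. The gap to the next gene is thus mixed with orientation. Coding last exons had 171 per Mb beside convergent and 87.4 beside tandem genes, and other coding exons had 85.5 and 63.1 per Mb. Over all coding exons, the convergent density was 128 per Mb where the genes overlap, 93.5 at gaps under 500 bp and 70.6 at larger gaps. The tandem density was 104 per Mb (29 sites), 67.8 and 64.5 in the same order. At the larger gaps, convergent and tandem coding exons were thus close. Within overlapping or closely convergent ends, a summit cannot be assigned to 1 of the 2 genes.

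Coding sites were also richer in G and C than coding windows, with a median of 45% over the 100 bp around the summit, against 41%. The density rose in each step of base composition, to 370 per Mb where G and C made up 55% or more, against 40.8 per Mb under 35%. In 3' UTRs the medians were 33% for sites and 31% for windows. The windows of last exons and of other coding exons had the same median of 41%. At 50% or more the density was 297 per Mb in last exons, against 213 in other exons, and under 40% it was 82.8, against 42.4. In 3' UTRs under 40% the density was 205 per Mb beside convergent and 88.4 beside tandem genes. Whether base composition affects recovery of DNA or read mapping here was not tested.

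**Figure D4:**
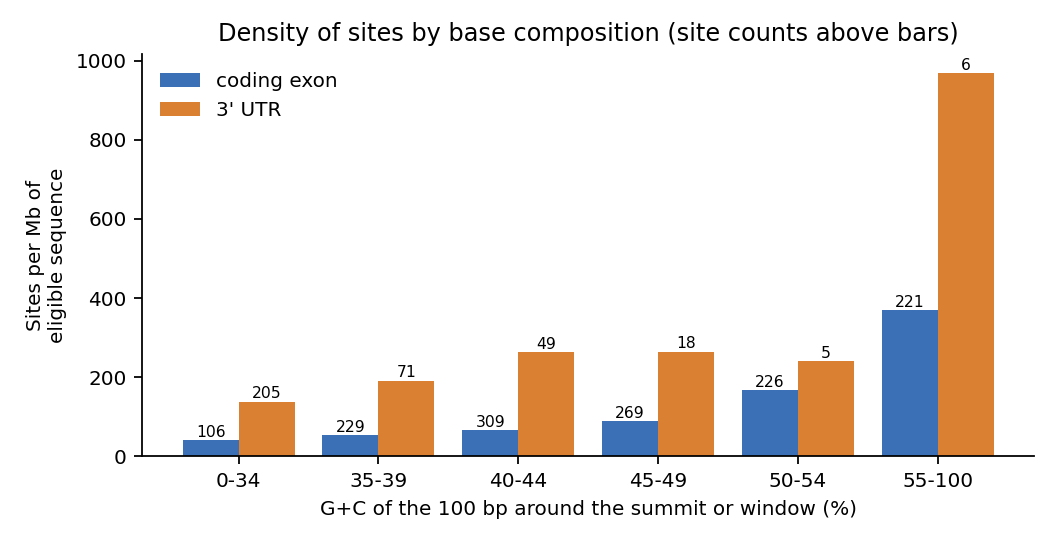
Sites per Mb of eligible sequence (y axis) by G and C content of the 100 bp around the summit or window (x axis), for coding exons (blue) and 3' UTRs (orange); the number printed over each bar counts its sites. The coding density is 370 per Mb in the richest class (221 sites) and 40.8 in the poorest (106 sites), while the richest 3' UTR class rests on 6 sites.

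The 65 sites in 5' UTRs lay inside genes, by rule more than 500 bp from the outermost start. The start of an annotated transcript lay within 500 bp of 47 of them (72.3%), against 54.3% of 5' UTR windows, and within 100 bp of 35 (53.8%), against 25.3%. This start can be that of the transcript whose 5' UTR holds the summit, as 60 of the 65 lay in a first exon. For coding sites the share within 500 bp was 12.6%, against 7.27% of windows. A rule that measured distance from every transcript's start would have left 1549 of the 1779 sites. The G and C content of the 65 sites in 5' UTRs had a median of 45%, against 36% in 5' UTR windows.

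Among short sequences searched on both strands within the central 100 bp, GAGAGA was in 23.1% of 5' UTR sites, against 8.53% of 5' UTR windows and 12.6% of all 8048 regions at 25 or more. In 3' UTR sites it was in 11.9%, against 7.26% of windows, and in coding sites in 6.32%, against 5.36%. AATAAA was less frequent in 3' UTR sites than in windows, at 34.7% against 41.1%, and TTTTTT likewise, at 42.1% against 52.9%. CACGTG was in 4.04% of coding sites, against 2.63% of windows, and TGATAA in 6.76%, against 9.20%. Over all 8048 regions at 25 or more these shares were 4.17% and 10.1%, in the same order. CGCGCG was in 9 sites in all. In 5' UTR sites AATAAA was in 23.1%, against 21.7% of 5' UTR windows, so the lower share held for 3' UTR and coding sites (8.01%, against 10.6%) but not there.

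The sites fell in 1407 genes of 15560 with an eligible exon, and 1142 of these genes had 1 site. The cuticle list, made by the symbols col-, dpy-, rol-, sqt- and bli-, had 59 sites in 52 of 159 genes, 380 per Mb, against 94.3 over all genes. Its dpy- symbols also take in dosage compensation genes, whose members dpy-21, dpy-27 and dpy-28 held 6 of the 59 sites. The col- genes alone, which encode cuticle collagens, had 44 sites in 40 of 128 genes, 485 per Mb. The median G and C content was 60% at these 59 sites and 50% over the list's windows, against 40% over all windows. At 50% G and C or more, coding windows of the list had 608 sites per Mb, against 214 in other genes. This class is broad: over all coding windows the density was 168 per Mb at 50 to 54% and 370 at 55% or more. Base composition was therefore not matched between the list and other genes. Of the 59 sites, 7 (11.9%) were high in both replicates, against 16.6% of all 1779 sites, and 2, in col-140 and col-122, were thresholded. The site in col-80, at a pooled 60.6, had 17.97 in replicate 1 and no summit in replicate 2.

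Among other gene lists, chaperones had 18 sites in 10 of 51 genes (289 per Mb), with dnj-20 the highest at 43.8 in replicate 1 and 19.7 in replicate 2. Cytosolic ribosomal protein genes had 3 sites in 3 of 40 genes (283 per Mb), in rps-19, rpl-4 and rps-7, all under 30. Translation factors had 10 sites in 7 of 36 genes (267 per Mb), and proteasome subunits 6 in 6 of 31 (234 per Mb). The proteasome base subunit gene rpt-2 had 22.6 in replicate 1 and 28.6 in replicate 2, and the lid subunit gene rpn-6.1 had 13.8 and 30.3. The germline RNA list had 8 sites in 5 of 23 genes (164 per Mb), among them the 3' UTRs of pos-1, for a zinc finger RNA-binding protein, and cgh-1, for a DDX6 helicase. Sites high in both replicates, 16.6% of all sites, were 2 of 18 for chaperones, 4 of 6 for the proteasome, 1 of 8 for the germline list, 0 of 10 for translation factors and 0 of 3 for ribosomal proteins, counts too small to set the lists apart.

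Genes with symbols of the chemoreceptor kind, sr and further letters, had 26 sites in 25 of 1135 genes (32.5 per Mb). This list also takes in srgp-1, for a GTPase activating protein, and srp-7, for a serpin, and 21 families known as chemoreceptors, many of them used in sensory neurons, had 22 sites in 21 of 1083 genes (29.3 per Mb). F-box and MATH-BTB genes had 4 sites in 4 of 373 genes (13.1 per Mb). C-type lectin genes had 10 sites (51.8 per Mb), and contractile and cytoskeletal genes 12 (61.1 per Mb). Nuclear hormone receptor genes, with 27 sites in 20 of 246 genes, stood at 99.8 per Mb, near the value for all genes. Histone genes had none in 10 genes with an eligible window, and the major sperm protein genes had no eligible window. The median G and C content of windows was 36% for the chemoreceptor symbols and 37% for the F-box and MATH-BTB list, but 42% for C-type lectins and 44% for contractile and cytoskeletal genes, against 40% over all genes. Gene activity was not measured here.

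Within single genes, chosen here after their counts were seen, sites repeated along the exons. Some of these regions overlap each other, so the sites of a gene are not all separate stretches. The yolk protein gene vit-6 had 6 sites over 4.8 kb of eligible exon, with pooled values between 44.6 and 92.8. All 6 were in both replicates' lists, and 4 were high in both. The highest, 1643 bp from the gene's 5' end, had 48.9 in replicate 1 and 42.9 in replicate 2. At another, 1865 bp from the 5' end, whose region overlaps that of the highest, replicate 1 had 40.5 and replicate 2 had 11.02. The yolk gene thus had summits along its length in both replicates, of uneven height.

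The reticulon gene ret-1 had 9 sites, all in coding exons, with pooled values between 25.4 and 53.1, 4 of them high in both replicates and none thresholded. One, 5588 bp from the 5' end, had 44.4 in replicate 1 and no summit in replicate 2, and one 4337 bp from it had 38.5 in replicate 2 and none in replicate 1. Other genes with 5 or 6 sites were Y54G2A.11, F32B5.6, W06H8.6, mnk-1, for a MAP kinase interacting kinase, ncl-1, for a TRIM-NHL protein that limits nucleolar size, pod-2, for acetyl-CoA carboxylase, set-16, for a histone methyltransferase, tps-2, for trehalose phosphate synthase, and tra-1, the GLI-type regulator of sex determination. In ncl-1 all 5 sites, some with overlapping regions, were high in both replicates, while pod-2, W06H8.6 and tps-2 had none that were. Of all 1779 sites, 657 (36.9%) had another region at 25 or more within 1000 bp, against 34.7% of all 8048 regions.

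**Figure D5:**
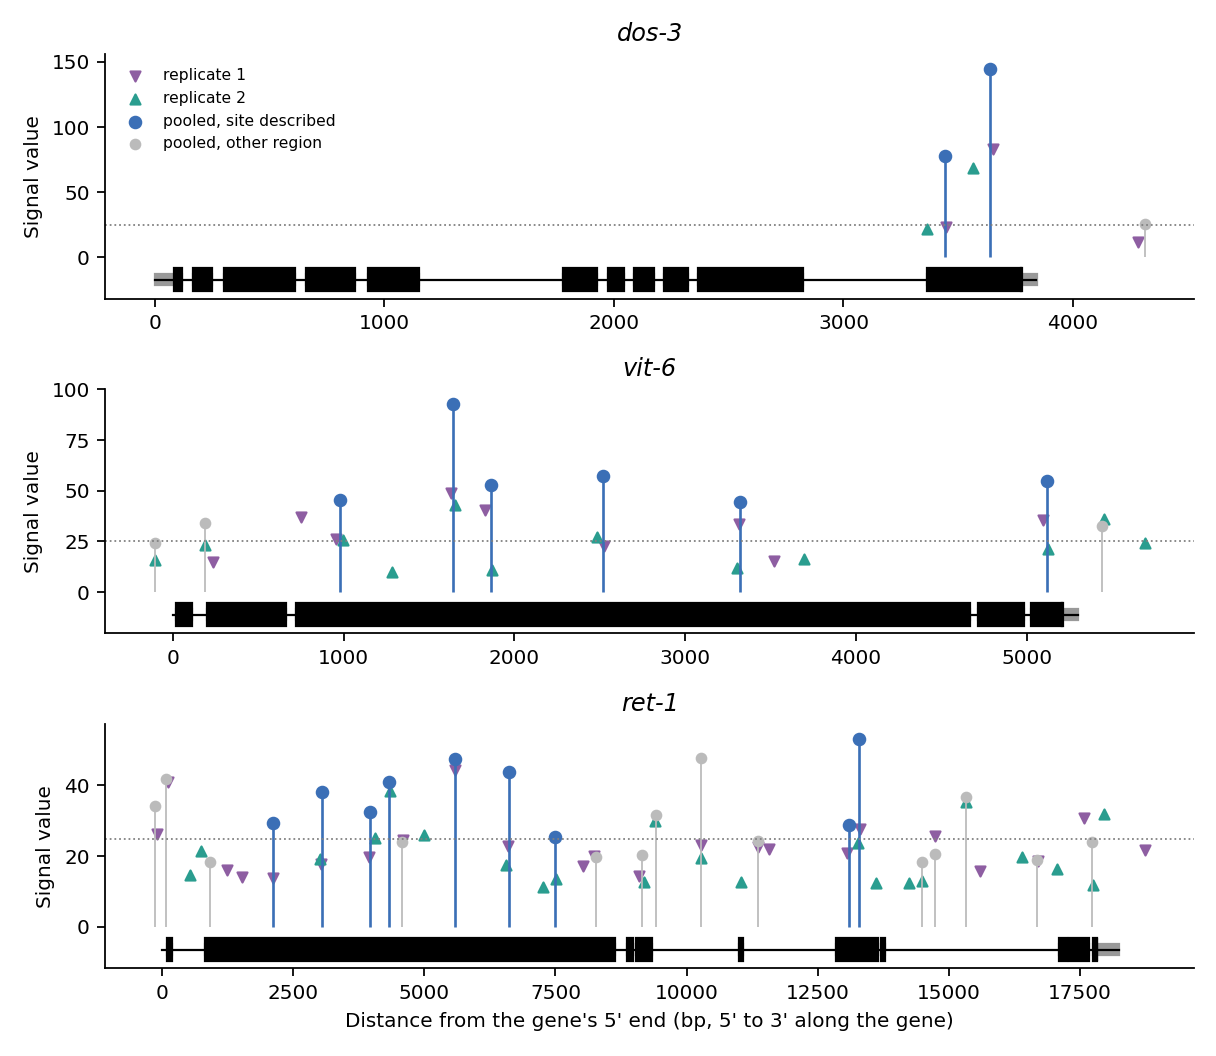
Signal values (y axis) of listed summits by distance from the 5' end (x axis, bp) in dos-3, vit-6 and ret-1: pooled sites described here (blue), other pooled regions (grey), replicate 1 (purple) and replicate 2 (green), with the dotted line at 25. Black boxes are coding parts and grey boxes untranslated parts of the longest transcript; both dos-3 sites lie in the last exon, with another pooled region beyond the gene, while those of vit-6 and ret-1 are spread along the gene.

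The gene of the tagged protein, mstr-1, had 1 site, in its last exon, with 18.5 in replicate 1 and 48.4 in replicate 2. Within 20 kb of the gene there were 4 sites, this 1 included, and none was thresholded. That count was not set against other stretches of the same size. The transgene carries this gene as well, and its DNA and that of the chromosomal gene cannot be told apart. Over the 1779 sites the central 50 bp were found once in the genome, except in ctl-2, a catalase gene, where they were found 3 times, so that reads there may come from other copies. By chromosome the density ran from 84.4 per Mb on chromosome I to 106 on chromosome III.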

How the data were processed

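ChIP-seq of F22D6.2-GFP was deposited for 2 biological replicates of 1 group. Per the labels and the file descriptions deposited with the samples, the authors made region lists on ce11 for each replicate, for both pooled, and after an irreproducible discovery rate threshold, each with a control. The aligner, the peak caller, its versions and the threshold are not given in the sources used here. The deposited signal value is the authors' own for each region and was used only to describe, rank and filter within a list. The authors' −log10 q-values, as deposited, share 1 ceiling value at the top of each list. The deposited offset, another value the authors gave for each region, placed its summit. Read numbers were not in these files, so depth is unknown. Exact binomial 95% intervals over sites served only to set shares under other settings beside the main one, and none is reported.

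Ensembl release 115 supplied the gene models (WBcel235, the assembly of ce11) and RefSeq the sequence. Summits were classed in the order near 5' end, small RNA, coding, 3' UTR, 5' UTR, intron and intergenic. The 5' end is the outermost annotated start of a gene. Lists on ce10 were not used. Work used Python 3.11.15, pandas 2.3.3, numpy 2.4.6 and scipy 1.17.1, and the classing was tested on positions of known place.

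With 1 group there was no comparison of conditions, and no test was made. The members, the gene lists and the alternatives were chosen with earlier results of these data known. Sites selected on the pooled signal were also described by replicate values from the same reads, which are not independent of that choice. Named sites were the 25 highest in the thresholded set, the 10 highest coding and 3' UTR sites, the 10 with the best poorer replicate rank, those beside the limit and those in the gene lists. The genes with many sites, mstr-1 and the printed AATAAA and GAGAGA sites were chosen after their values were seen.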

Additional observations from a re-analysis of the deposited data

How the results depend on the processing

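Raising the signal value to 50 left 150 sites, of which 62.0% were coding, against 76.4% of the 1779. Letting the longest coding transcript decide gave a coding share of 80.4%. Joining overlapping regions, with the highest of each kept, gave 1602 sites, of which 77.3% were coding. With each replicate left out in turn, and as many of the other's highest regions taken, the count was 1720 to 1971 sites and the coding share 76.3% to 80.5%. The share high in both replicates, 16.6%, depends on the distance allowed: it was 9.22% within 50 bp, 26.3% within 200 bp and 36.9% with any overlap, and 0.562% among only as many regions per replicate as the thresholded set held. Any overlap put 45 sites in the thresholded set, in place of 27. Moving the distance from 5' ends to 250 or 1000 bp gave 2053 or 1403 sites, and measuring it from every transcript gave 1549. A distance of 500 bp from small RNA genes, in place of 200 bp, left 1766.

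After seeing the data, 4 descriptions were computed again without each replicate, over sites high in both and at 50 or more. The last-exon share of coding sites ran from 23.8% to 44.1%, and the convergent share of 3' UTR sites from 66.7% to 71.1%. The share of 5' UTR sites within 500 bp of a transcript start ran from 71.4% to 75.4%, and the median G and C content of coding sites from 45% to 46%. Narrowing lists made by symbol, also after seeing the data, left 53 of the 59 cuticle list sites without the dosage compensation genes and 44 in col- genes, and 22 of the 26 chemoreceptor sites. No paired analysis was possible because there is 1 group. The unknown depth limits what a missing summit means: it shows only that a replicate's list held none there.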
